A study of Mus musculus with 40 samples.

Results

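A set of 10 genes of the immunoproteasome and of MHC class I antigen presentation were followed in cultured mouse cardiac fibroblasts: Psmb8, Psmb9, Psmb10, Psme1, Psme2, Tap1, Tap2, Tapbp, B2m and Nlrc5. They were chosen by name and matched to the Ensembl identifiers of the count table, and all 10 were among the 25210 genes tested of the 55414 listed. The fibroblasts came from C57BL/6J TAK1fl/fl mice, in which loxP sites flank an exon of Map3k7, the gene of the kinase TAK1, and were used at passage 1. Cells of every group carried the floxed allele and received an adenovirus driven by the CMV promoter, which coded either for the recombinase iCre or for LacZ as the control. They were then kept without serum for 24 h with no ligand (Con), with an inflammatory ligand (TNFα at 10 ng/ml or IL-1β at 15 ng/ml), or with a growth factor (TGFβ at 10 ng/ml or bFGF at 20 ng/ml). This gave 10 groups of 4 libraries each, 40 in all. The comparisons addressed how these ligands moved the genes and how the responses differed once TAK1 was deleted.

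The proteasome is a barrel of protein subunits that degrades tagged proteins. In the immunoproteasome the constitutive catalytic subunits Psmb5, Psmb6 and Psmb7 are replaced by the inducible Psmb8, Psmb9 and Psmb10, which changes the peptides that are made. Psme1 and Psme2 form the PA28 cap that opens the barrel. Peptides are carried into the endoplasmic reticulum by the transporter Tap1 with Tap2, loaded onto class I heavy chains with the help of tapasin (Tapbp), and shown at the cell surface with B2m, the invariant light chain. Nlrc5 is the transactivator of class I genes. The pathway is best known for its induction by interferons and, in many cell types, by TNFα.

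The libraries held 25360947 to 66160732 counts, with a median of 36183962. Values below are CPM (counts scaled to a common library size) after TMM scaling over all libraries. The labelled cell type was borne out by its markers: the summed level of 10 fibroblast markers, such as Col1a1, Col1a2 and Vim, was 15351 to 69714 CPM per library, and that of 10 leukocyte and macrophage markers was 18.1 to 187 CPM. The sums of markers of other cells of the heart ran from 62.0 to 1369 CPM for pericytes and smooth muscle, 3.84 to 26.1 CPM for endothelium and 1.30 to 112 CPM for cardiomyocytes. Map3k7 read 155, 144, 154 and 159 CPM in LacZ Con and 128, 123, 126 and 133 CPM in iCre Con. In every condition all iCre libraries lay below all LacZ libraries for Map3k7. The log2 difference did not pass in Con (-0.28, edgeR adjusted p = 0.14) or with bFGF (-0.40, edgeR adjusted p = 0.35). It was -0.67 with TGFβ, -0.71 with TNFα and -0.82 with IL-1β (edgeR adjusted p = 0.00088, 0.00083 and 0.00027). In LacZ cells Map3k7 itself rose with these ligands, by 0.58, 0.64 and 0.53. The deletion is meant to leave a truncated transcript, so a residual count checks it only in part. Replicate 1 stood apart, and its libraries carry a separate run of library numbers. It was the lowest LacZ library for 9 of the 10 genes in each of Con, bFGF, TGFβ and IL-1β, and for 6 with TNFα, whereas in iCre TNFα it was the highest for 8. Libraries with the same replicate number also deviated together across genes, so the fit with the replicate number as a block is given wherever it changes a call.

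The genes Psmb8, Psmb9, Tap1, Tap2 and Tapbp lie in the MHC region of mouse chromosome 17 (build GRCm38, GENCODE M21): Psmb9 at chr17:34181987-34187764 on the minus strand, and Tap1 at chr17:34187553-34197225, Psmb8 at chr17:34197721-34201454, Tap2 at chr17:34203527-34216321 and Tapbp at chr17:33915899-33929292 on the plus strand. Psmb10 is at chr8:105935735-105938444 on the minus strand and Nlrc5 at chr8:94434356-94527272 on the plus strand. Psme1 is at chr14:55578123-55581529 on the plus strand, Psme2 at chr14:55587441-55591113 on the minus strand and B2m at chr2:122147686-122153083 on the plus strand. Exons of Psmb9 and Tap1 overlap by 212 bases on opposite strands. The strand setting of the counting is not given in the sources used here, so reads in that stretch cannot be assigned to one gene or the other. The same holds for Tapbp, whose exons overlap those of Gm19412 by 904 bases on the opposite strand and those of Zbtb22 by 149 bases on the same strand, and for Tap2, which overlaps Gm15821 by 533 bases on the opposite strand. Psmb8, Psme1 and Nlrc5 also overlap a neighbour on the opposite strand, by 498, 14 and 78 bases.

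RefSeq promoter windows (GRCm38.p6, 250 bases before to 50 after a start) were matched for 8 of the 10 genes. Each was searched on both strands for the NF-κB consensus, the interferon-stimulated response element (ISRE, GAAANNGAAA) and the interferon-gamma activated sequence (GAS, TTCNNNGAA). These matched 4.51%, 3.44% and 8.3% of all 32851 windows. The 3 genes whose windows held a match are shown because the members moved together with TNFα, and the Psmb9 and Tap1 stretch because both genes start from it in opposite directions. Positions count from the RefSeq start, which can differ from the GENCODE coordinates above. The Psmb8 stretch, for example, lies inside the GENCODE span of the gene. The B2m sequence, chr2:122147437-122147686 on the plus strand, ends at the base before the RefSeq start. Its first capitals are the ISRE match at position -139 and its second are the NF-κB match at position -126, which is on the minus strand.
B2m: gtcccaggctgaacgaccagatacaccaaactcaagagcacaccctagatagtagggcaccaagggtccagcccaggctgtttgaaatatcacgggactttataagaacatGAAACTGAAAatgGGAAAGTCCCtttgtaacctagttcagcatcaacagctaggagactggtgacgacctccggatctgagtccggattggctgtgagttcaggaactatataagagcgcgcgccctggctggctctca
For Psme1 the ISRE match lay at position 10 after the start, on the minus strand, and is in capitals within chr14:55578493-55578522.
Psme1: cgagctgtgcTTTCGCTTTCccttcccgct
For Psmb8 the capitals mark the GAS match at position -97, within chr17:34197945-34198194.
Psmb8: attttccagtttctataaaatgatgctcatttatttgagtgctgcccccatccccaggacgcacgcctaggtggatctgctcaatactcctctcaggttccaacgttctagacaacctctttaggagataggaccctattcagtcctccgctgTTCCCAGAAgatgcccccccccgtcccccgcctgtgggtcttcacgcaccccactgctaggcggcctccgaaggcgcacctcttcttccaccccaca
The RefSeq starts of Psmb9 (34187330) and Tap1 (34187556) are the first and last base of 227 bases at chr17:34187330-34187556, both in capitals. These starts lie apart, while the GENCODE exons of the genes overlap.
Tap1: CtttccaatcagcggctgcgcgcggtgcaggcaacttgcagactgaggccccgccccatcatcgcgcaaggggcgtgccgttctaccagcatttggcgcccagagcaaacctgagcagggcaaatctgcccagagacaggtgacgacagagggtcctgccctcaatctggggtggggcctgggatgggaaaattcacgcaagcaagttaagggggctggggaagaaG
No match to these letters was found in the windows of Psmb9, Psmb10, Psme2, Tap1 and Tapbp, which says nothing of other sequences or of other windows.

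Levels can be compared between genes only per length, so CPM were divided by the exon length in kilobases. This length joins all annotated exons of a gene, so the order between genes depends on the annotation. In LacZ Con, B2m was far above the others at 1615 ± 516 CPM per kilobase (SD, n = 4), followed by Tapbp at 75.8 ± 7.3, Psme2 at 35.1 ± 5.5 and Psme1 at 31.3 ± 3.4. Tap2 (16.0), Psmb10 (15.9), Tap1 (12.6) and Psmb8 (7.44) followed, and Psmb9 (2.46) and Nlrc5 (0.727) were the lowest. The libraries of Psme2 and Psme1 overlapped, and so did each neighbouring pair from Tap2 down to Psmb9, so the order within those pairs was not resolved. With TNFα in LacZ cells Psmb10 reached 118 CPM per kilobase, above Psme2 at 111 and Psme1 at 93.6, while B2m stood at 3322 and Tapbp at 349. The libraries of Psmb10 and Psme2 overlapped, as did those of Psme2 and Psme1, so the order within those pairs was not resolved.

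**Figure D1:**
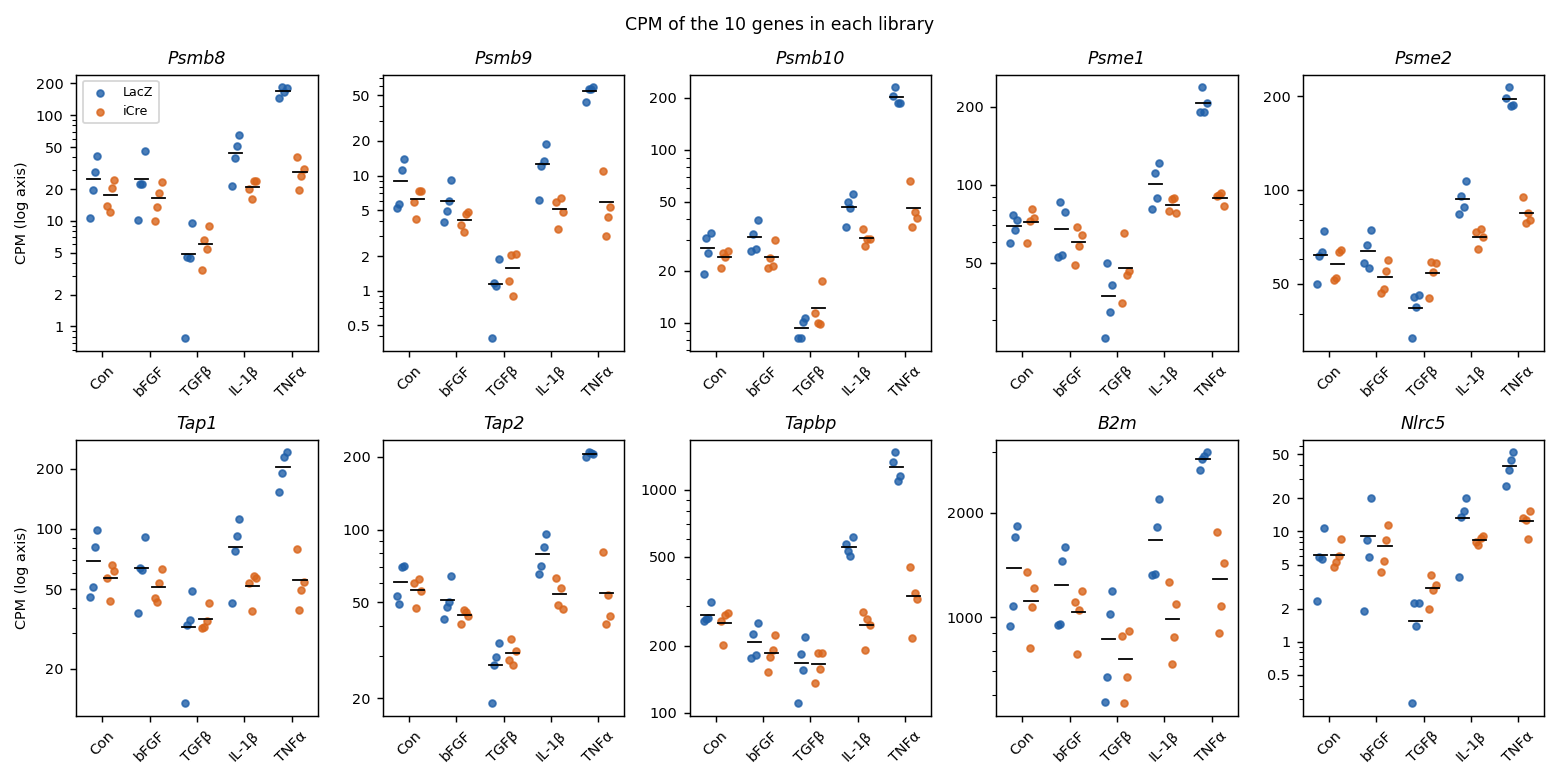
CPM of each of the 10 genes in each library (points; log axes) by ligand, with LacZ libraries in blue, iCre libraries in orange and the group mean as a black line. For all 10 genes the 4 LacZ libraries with TNFα lie above every other library, and the lowest group mean of each gene is in a TGFβ group.

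Across the 10 groups the genes followed one order at its ends. LacZ TNFα had the highest mean for 10 of 10 genes, with all 4 libraries above every library of the other groups, which 1.63% of all genes tested also showed. LacZ IL-1β had the second highest mean for all 10, with libraries that overlapped those of the next group for 9 of them and did not for Tapbp, and the lowest group was LacZ TGFβ for 8 genes and iCre TGFβ for 2. These orders are descriptions.

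TNFα raised every one of the 10 genes in LacZ fibroblasts, and the largest changes were in the catalytic subunits and Nlrc5. All 10 rose against LacZ Con (edgeR quasi-likelihood test, Benjamini-Hochberg adjusted over all genes tested, adjusted p at most 0.05), where 10.9% of all genes rose. All 10 also had ranges that did not overlap, against 12.5% of all genes that were higher without overlap. The median log2 fold change was 1.99 over the members and -0.08 over all genes tested. In whole-culture RNA, more cells expressing a gene and more RNA per cell cannot be told apart.

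Among the inducible catalytic subunits, Psmb10, the trypsin-like subunit, read 19.3, 30.7, 25.4 and 33.1 CPM in LacZ Con and 205, 230, 186 and 186 CPM with TNFα. The lowest TNFα library was thus more than 5 times the highest Con library, and the log2 fold change was 2.90 ± 0.16 (SE; edgeR, adjusted p = 5.4e-06). Psmb8, the chymotrypsin-like subunit, read 10.6, 19.5, 29.0 and 41.5 CPM in Con and 147, 185, 166 and 179 CPM with TNFα. Its log2 fold change was 2.75 ± 0.35 (adjusted p = 0.00053 by edgeR), and the Con libraries spread more widely than the TNFα libraries. Psmb9, the third subunit of this set and the least abundant, read 5.22, 5.69, 11.2 and 13.9 CPM in Con and 43.2, 57.1, 57.0 and 58.8 CPM with TNFα, a log2 fold change of 2.58 ± 0.31 (edgeR adjusted p = 0.00037).

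The PA28 genes responded less but with little spread. Psme1 read 59.5, 76.8, 67.0 and 73.4 CPM in Con and 191, 238, 191 and 207 CPM with TNFα, a log2 fold change of 1.58 ± 0.10 (edgeR adjusted p = 1.1e-05). Psme2 read 49.8, 61.5, 63.0 and 73.6 CPM in Con and 198, 214, 186 and 188 CPM with TNFα, a log2 fold change of 1.67 ± 0.11 (edgeR adjusted p = 1.6e-05). Both genes encode the same complex and lie near each other on chromosome 14, in opposite directions.

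Of the peptide transporter, Tap1 read 45.4, 51.1, 81.3 and 98.3 CPM in Con and 153, 191, 229 and 242 CPM with TNFα, a log2 fold change of 1.56 ± 0.25 (edgeR adjusted p = 0.002). Its partner Tap2 read 52.9, 49.3, 69.7 and 70.3 CPM in Con and 200, 209, 208 and 206 CPM with TNFα, a log2 fold change of 1.76 ± 0.13 (edgeR adjusted p = 2.1e-05). Tapbp, the tapasin gene that bridges the transporter to the heavy chain, read 257, 262, 267 and 315 CPM in Con and 1340, 1473, 1100 and 1156 CPM with TNFα. Its log2 fold change, 2.21 ± 0.12 (edgeR adjusted p = 5.4e-06), was above those of Tap1 and Tap2.

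B2m, the most abundant of the 10, read 943, 1079, 1703 and 1832 CPM in Con and 2666, 2860, 2914 and 2987 CPM with TNFα. It had the smallest log2 fold change of the 10 at 1.04 ± 0.21 (edgeR adjusted p = 0.0067). Nlrc5 read 2.34, 5.93, 5.64 and 10.8 CPM in Con and 25.6, 36.1, 44.4 and 52.1 CPM with TNFα, a log2 fold change of 2.69 ± 0.40 (edgeR adjusted p = 0.0013). For both genes replicate 1 was the lowest library in both groups. Without replicate 1 all 10 genes still rose, with log2 fold changes of 0.92 for B2m and 2.58 for Nlrc5.

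**Figure D2:**
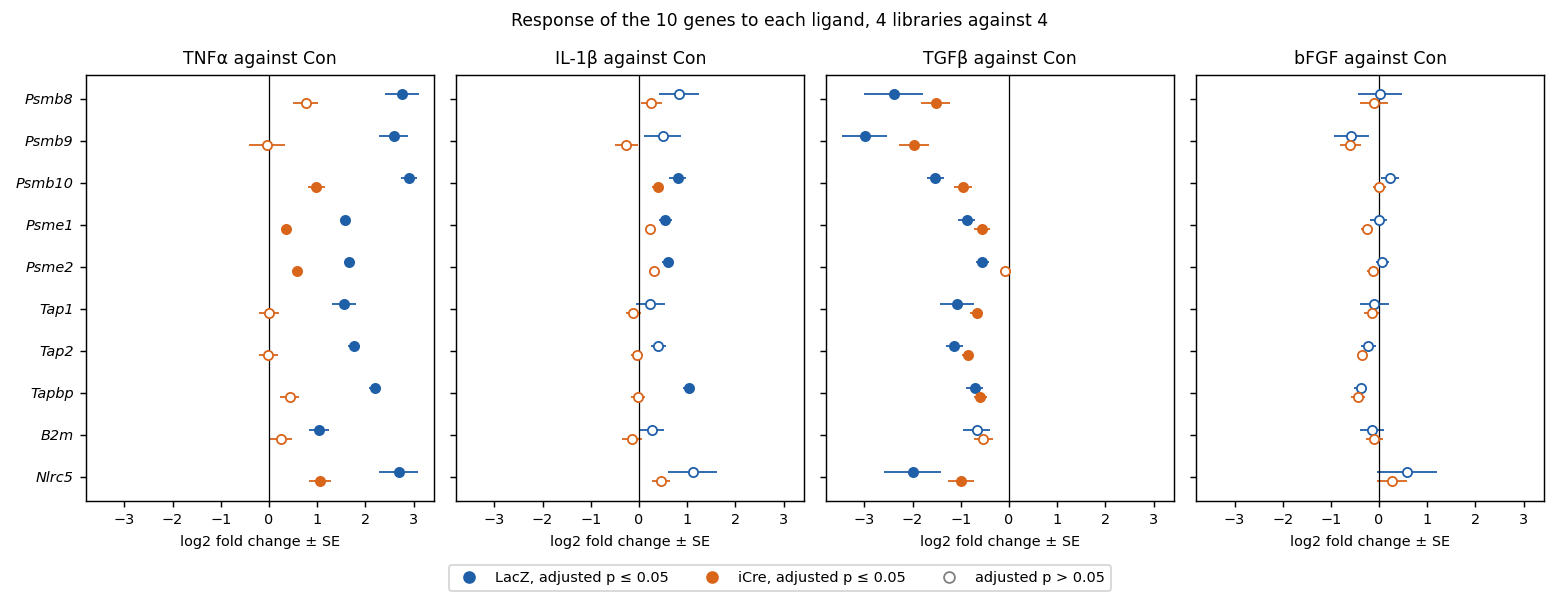
log2 fold change ± SE of each gene with each ligand against Con of the same virus (4 libraries against 4), LacZ in blue and iCre in orange. Filled points have an adjusted p at most 0.05 and open points a higher one. In LacZ cells 10 TNFα points are filled, as are 9 of TGFβ, 4 of IL-1β and 0 of bFGF.

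IL-1β moved fewer of these genes than TNFα. In LacZ cells 4 of the 10 rose, where 11.1% of all genes rose: Tapbp by 1.03 ± 0.11 on the log2 scale (edgeR adjusted p = 0.0002), Psmb10 by 0.80 ± 0.17 (adjusted p = 0.0095), Psme2 by 0.60 ± 0.12 (adjusted p = 0.0072) and Psme1 by 0.55 ± 0.14 (adjusted p = 0.017). Tapbp read 572, 531, 506 and 616 CPM with IL-1β, all above its Con libraries and all below its TNFα libraries. Nlrc5 read 3.87, 13.6, 15.4 and 20.0 CPM and overlapped its Con libraries, with a log2 fold change of 1.11 ± 0.50 (edgeR adjusted p = 0.15). With the replicate block 9 of the 10 rose, where 15.8% of all genes rose, and Tap1 was the exception. The count was 2 without the replicate 3 libraries of both groups.

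The direct comparison of the inflammatory ligands gave a higher level with TNFα than with IL-1β for 10 of 10 genes, where 4.78% of all genes were higher. The differences ran from 0.78 ± 0.17 for B2m (edgeR adjusted p = 0.018) to 2.10 ± 0.13 for Psmb10 (adjusted p = 1.2e-05) and 2.10 ± 0.27 for Psmb9 (adjusted p = 0.00082) on the log2 scale. The doses differed between these ligands, so the values describe these doses and not the ligands at a matched dose. Without the replicate 3 libraries 7 passed (not Tap1, B2m and Nlrc5), and 9 passed without replicate 1 and also without replicate 4.

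TGFβ lowered most of the same genes. In LacZ cells 9 of the 10 fell, where 19.3% of all genes fell, and the median log2 fold change was -1.11 over the members and -0.17 over all genes tested. The catalytic subunits and Nlrc5 again had the largest changes. Psmb9 read 0.386, 1.18, 1.1 and 1.89 CPM with TGFβ, all below its Con libraries, and fell by 2.99 ± 0.47 on the log2 scale (edgeR adjusted p = 0.00063). Psmb8 read 0.773, 4.56, 4.46 and 9.43 CPM, with the highest just under the lowest Con library, and fell by 2.40 ± 0.61 (edgeR adjusted p = 0.011). Psmb10 read 8.22, 8.16, 10.1 and 10.6 CPM and fell by 1.53 ± 0.17 (edgeR adjusted p = 7.3e-05). Nlrc5 read 0.276, 2.23, 1.39 and 2.24 CPM and fell by 2.003 ± 0.58 (edgeR adjusted p = 0.021).

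The transporter and loading genes fell less with TGFβ. Tap2 read 19, 27.4, 29.5 and 33.8 CPM and fell by 1.13 ± 0.18 (edgeR adjusted p = 0.00069). Tap1 read 13.4, 32.9, 34.9 and 48.7 CPM, which overlapped its Con libraries, and fell by 1.08 ± 0.36 (edgeR adjusted p = 0.036). Psme1 fell by 0.88 ± 0.18 (edgeR adjusted p = 0.0028), Tapbp by 0.71 ± 0.18 (adjusted p = 0.0095) and Psme2 by 0.56 ± 0.13 (adjusted p = 0.0076). B2m had a log2 fold change of -0.68 ± 0.28 and did not pass (edgeR adjusted p = 0.085), but with the replicate block it fell by 0.67 (edgeR adjusted p = 0.0001). Without the replicate 3 libraries the count was 4 (Psmb9, Psmb10, Psme1 and Tap2), and the log2 fold changes of the 10 then ran from -2.85 to -0.55.

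bFGF did not give a call on any of the 10 genes in LacZ cells by edgeR, where 11.6% of all genes changed in either direction. At an unadjusted p under 0.05 there was 1, and DESeq2 gave 0. The log2 fold changes ran from -0.57 for Psmb9 (edgeR adjusted p = 0.35) to 0.59 for Nlrc5 (adjusted p = 0.59). With the replicate block 2 fell, where 12.7% of all genes fell: Tapbp by 0.39 (edgeR adjusted p = 0.0081) and Psmb9 by 0.55 (adjusted p = 0.018). In iCre cells the count was also 0 by edgeR, where 2.42% of all genes changed, with 3 at an unadjusted p under 0.05 and 1 by DESeq2. With the block 2 fell there too, where 5.51% of all genes fell: Tapbp by 0.44 and Psmb9 by 0.57. Without the replicate 2 libraries 1 fell in LacZ cells (Tapbp) and 3 in iCre cells (Psmb9, Tap2 and Tapbp).

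In iCre fibroblasts TNFα raised part of the set, and by less. Of the 10 genes 4 rose against iCre Con, where 14.7% of all genes rose, and the median log2 fold change was 0.39 over the members and -0.04 over all genes tested. Psmb10 read 20.7, 25.5, 23.9 and 25.9 CPM in iCre Con and 66.1, 35.6, 43.6 and 40.3 CPM with TNFα, and rose by 0.99 ± 0.18 (edgeR adjusted p = 0.0032). Nlrc5 read 4.75, 5.33, 6.00 and 8.59 CPM in iCre Con and 13.4, 12.7, 8.53 and 15.5 CPM with TNFα, and rose by 1.05 ± 0.23 (edgeR adjusted p = 0.0076). Psme2 rose by 0.58 ± 0.11 (edgeR adjusted p = 0.003) and Psme1 by 0.35 ± 0.10 (adjusted p = 0.025).

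The other 6 members did not pass in iCre cells with TNFα. Psmb9 read 5.96, 4.22, 7.42 and 7.33 CPM in iCre Con and 10.9, 2.998, 4.36 and 5.35 CPM with TNFα, so that 3 of its 4 libraries lay within or below the Con range and replicate 1 above it. Its log2 fold change was -0.04 ± 0.37 (edgeR adjusted p = 0.97). Tap2 read 60.2, 47.3, 62.6 and 55.6 CPM in iCre Con and 80.4, 40.5, 53.3 and 43.9 CPM with TNFα, with a log2 fold change of -0.01 ± 0.20 (edgeR adjusted p = 0.99). Psmb8 read 40.0, 19.7, 26.6 and 31.0 CPM with TNFα against 13.9, 12.2, 20.3 and 24.4 CPM in iCre Con, a log2 fold change of 0.76 ± 0.26 that did not pass (edgeR adjusted p = 0.056). With the replicate block 7 of the 10 rose, where 19.3% of all genes rose, by the addition of Psmb8 (edgeR adjusted p = 0.018), Tapbp (adjusted p = 0.033) and B2m (adjusted p = 0.034). The all-library fit gave 2 calls. Without replicate 1, the highest iCre TNFα library for 8 of the genes, 3 rose, and the log2 fold change of Psmb10 was 0.70.

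IL-1β raised only Psmb10 among the 10 in iCre cells by edgeR, by 0.39 ± 0.11 (adjusted p = 0.035), where 9.38% of all genes rose. It read 35.0, 27.7, 30.7 and 30.4 CPM with IL-1β, all above its iCre Con libraries. Without replicate 1, 3 or 4 no member passed. With the block 5 rose, where 17.2% of all genes rose: Psmb10, Nlrc5, Psme2, Psme1 and Psmb8, by 0.24 to 0.48. With the block and a GC correction 4 fell, where 14.2% of all genes fell, Psmb9 by 0.46, Tap1 by 0.34, Tap2 by 0.26 and Tapbp by 0.25, and B2m rose by 0.20 (edgeR adjusted p = 0.016), where 13.6% of all genes rose, against a log2 fold change of -0.15 without them. Psmb10 had 0.17 in that fit and did not pass (edgeR adjusted p = 0.25).

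TGFβ lowered 8 of the 10 genes in iCre cells, where 18.8% of all genes fell. Psmb9 read 1.22, 2.04, 0.899 and 2.10 CPM with TGFβ and fell by 1.97 ± 0.31 (edgeR adjusted p = 0.00054), and Psmb8 read 3.41, 6.51, 5.43 and 8.99 CPM and fell by 1.52 ± 0.30 (edgeR adjusted p = 0.0025). Nlrc5 fell by 1.00, Psmb10 by 0.96, Tap2 by 0.86, Tap1 by 0.67, Tapbp by 0.59 and Psme1 by 0.57. Psme2 had a log2 fold change of -0.08 ± 0.11 (edgeR adjusted p = 0.64) and B2m one of -0.54 ± 0.19 (adjusted p = 0.052). B2m fell with the replicate block (edgeR adjusted p = 0.00038). Without the replicate 3 libraries the count was 5.

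**Figure D3:**
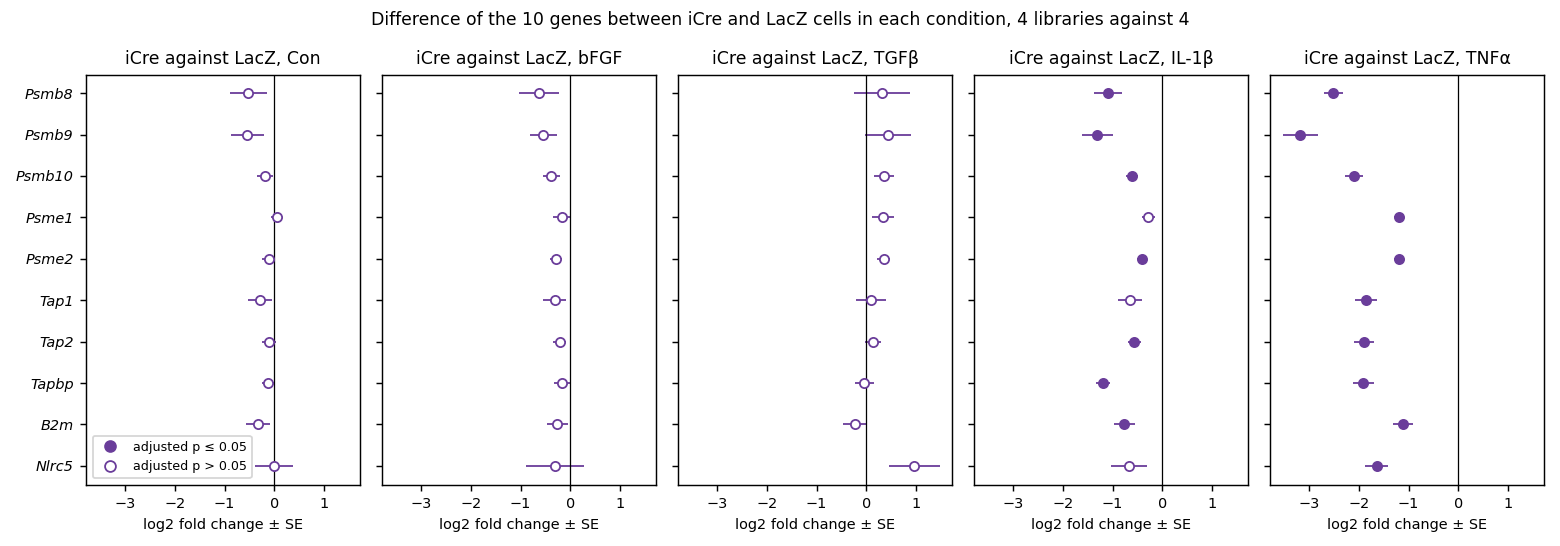
log2 fold change ± SE of each gene in iCre against LacZ fibroblasts under each condition (4 libraries against 4). Filled points have an adjusted p at most 0.05. With TNFα all 10 points are filled and lie between -3.17 and -1.12, with IL-1β 7 are filled, and with Con, bFGF and TGFβ 0 are filled.

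Between iCre and LacZ fibroblasts all 10 genes differed with TNFα and 7 with IL-1β by edgeR, and 0 passed in the other conditions. Without ligand 0 of the 10 differed by edgeR, where 0.0754% of all genes differed. There were 0 at an unadjusted p under 0.05 and 0 by DESeq2, and the log2 differences ran from -0.54 ± 0.33 for Psmb9 to 0.04 ± 0.11 for Psme1. With bFGF 0 of the 10 differed by edgeR, where 0% of all genes differed, with 2 at an unadjusted p under 0.05 and 0 by DESeq2. With the block Psmb10 was lower in iCre than in LacZ cells under bFGF, with a log2 difference of -0.38 (edgeR adjusted p = 0.016), where 5.14% of all genes were lower. With TGFβ 0 of the 10 differed by edgeR, where 8.37% of all genes differed, with 1 at an unadjusted p under 0.05 and 0 by DESeq2. With the block 3 were higher in iCre cells, where 7.8% of all genes were higher: Nlrc5 by 1.01, Psme2 by 0.35 and Psme1 by 0.34.

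With IL-1β 7 of the 10 were lower in iCre cells, where 8.98% of all genes were lower. Tapbp read 283, 192, 263 and 248 CPM in iCre cells, all below the 506 to 616 CPM of LacZ cells, with a log2 difference of -1.19 ± 0.14 (edgeR adjusted p = 0.00038). Psmb9 differed by -1.31 ± 0.31 (edgeR adjusted p = 0.016), Psmb8 by -1.10 ± 0.28 (adjusted p = 0.024), B2m by -0.76 ± 0.22 (adjusted p = 0.037), Psmb10 by -0.61 ± 0.13 (adjusted p = 0.0095), Tap2 by -0.56 ± 0.14 (adjusted p = 0.019) and Psme2 by -0.41 ± 0.09 (adjusted p = 0.012). Only Tapbp passed without the replicate 3 libraries, and only Tapbp without the replicate 4 libraries. With the block Tap1 passed as well (edgeR adjusted p = 0.045).

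With TNFα all 10 genes were lower in iCre than in LacZ fibroblasts, where 12.6% of all genes were lower. All 10 had ranges that did not overlap, against 14% of all genes that were lower without overlap. The median log2 difference was -1.87 over the members and 0.00 over all genes tested. Psmb9 had the largest difference, -3.17 ± 0.36 (edgeR adjusted p = 0.0003), with 2.998 to 10.9 CPM in iCre and 43.2 to 58.8 CPM in LacZ cells. Psmb8 followed at -2.51 ± 0.20 (edgeR adjusted p = 6.4e-05), with 19.7 to 40.0 against 147 to 185 CPM, and Psmb10 at -2.10 ± 0.19 (edgeR adjusted p = 0.00012), with 35.6 to 66.1 against 186 to 230 CPM.

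The loading and transport genes stood close together in the same comparison. Tapbp read 449, 217, 344 and 322 CPM in iCre cells, a log2 difference of -1.91 ± 0.21 (edgeR adjusted p = 0.00029). Tap2 differed by -1.89 ± 0.20 (edgeR adjusted p = 0.00023) and Tap1, at 79.4, 39.3, 49.5 and 54.5 CPM in iCre cells, by -1.85 ± 0.22 (adjusted p = 0.0004). Nlrc5 differed by -1.64 ± 0.23 (edgeR adjusted p = 0.00088), Psme2 by -1.20 ± 0.09 (adjusted p = 6.4e-05) and Psme1 by -1.19 ± 0.09 (adjusted p = 6.8e-05). B2m read 1761, 904, 1081 and 1432 CPM in iCre cells against 2666 to 2987 CPM in LacZ cells, a log2 difference of -1.12 ± 0.20 (edgeR adjusted p = 0.0028). Leaving out each replicate number in turn kept the count at 10. Without replicate 1 the log2 difference of Psmb9 was -3.76.

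Whether a ligand's effect differed between the viruses was tested as an interaction over 16 libraries. For TNFα the effect was smaller in iCre cells for 9 of the 10 genes, where 7.7% of all genes had such a negative interaction. The terms ran from -2.64 ± 0.52 for Psmb9 (edgeR adjusted p = 0.0023) to -1.09 ± 0.16 for Psme2 (adjusted p = 0.00027). B2m gave -0.80 ± 0.33 (edgeR adjusted p = 0.12), and -0.84 with the block (adjusted p = 0.033). Without the replicate 3 libraries 6 passed, and Psmb8, Tap1 and Nlrc5 did not. Without replicate 2 the count was 8, and Nlrc5 did not pass. For IL-1β only Tapbp passed, at -1.06 ± 0.18 (edgeR adjusted p = 0.0017), where 4.95% of all genes had a negative interaction. With the block and a GC correction 5 passed, where 6.4% of all genes had a negative interaction, Tapbp at -1.26, Tap2 at -0.64, Psmb10 at -0.60, Psme1 at -0.50 and Psme2 at -0.46. For TGFβ 0 of the 10 passed by edgeR, where 4.51% of all genes did, with 1 at an unadjusted p under 0.05 and 0 by DESeq2. With the block Psme2 passed at 0.44 (edgeR adjusted p = 0.022), where 2.47% of all genes had a positive interaction. For bFGF 0 of the 10 passed by edgeR, where 0% of all genes did, with 0 at an unadjusted p under 0.05 and 0 by DESeq2.

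The inducible subunits take the place of constitutive ones, so the ratio of each pair per kilobase was computed in every library. The joined exon lengths were 1705 bases for Psmb10 and 3421 for Psmb7, 3381 for Psmb8 and 899 for Psmb5, and 3660 for Psmb9 and 1872 for Psmb6. Where a ratio stands against 1 depends on these lengths, while its change between groups does not. In LacZ cells Psmb10 over Psmb7 was 0.537, 0.843, 0.667 and 0.847 without ligand and 4.72, 5.37, 4.28 and 4.12 with TNFα, so by this measure Psmb10 passed its counterpart in all 4 libraries. Psmb8 over Psmb5 was 0.0968, 0.161, 0.252 and 0.358 without ligand and 0.997, 1.24, 1.19 and 1.17 with TNFα. Psmb9 over Psmb6 was 0.0353, 0.0353, 0.0711 and 0.0863 without ligand and 0.237, 0.328, 0.343 and 0.321 with TNFα, which stayed below 1. In iCre cells with TNFα the ratios were 0.598 to 1.28 for Psmb10 over Psmb7, 0.0847 to 0.216 for Psmb8 over Psmb5 and 0.0111 to 0.0527 for Psmb9 over Psmb6. With TGFβ the LacZ means were 0.160 ± 0.024, 0.0220 ± 0.0165 and 0.00522 ± 0.00284 (SD, n = 4) in the same order. These are descriptions of transcript ratios, with no test.

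**Figure D4:**
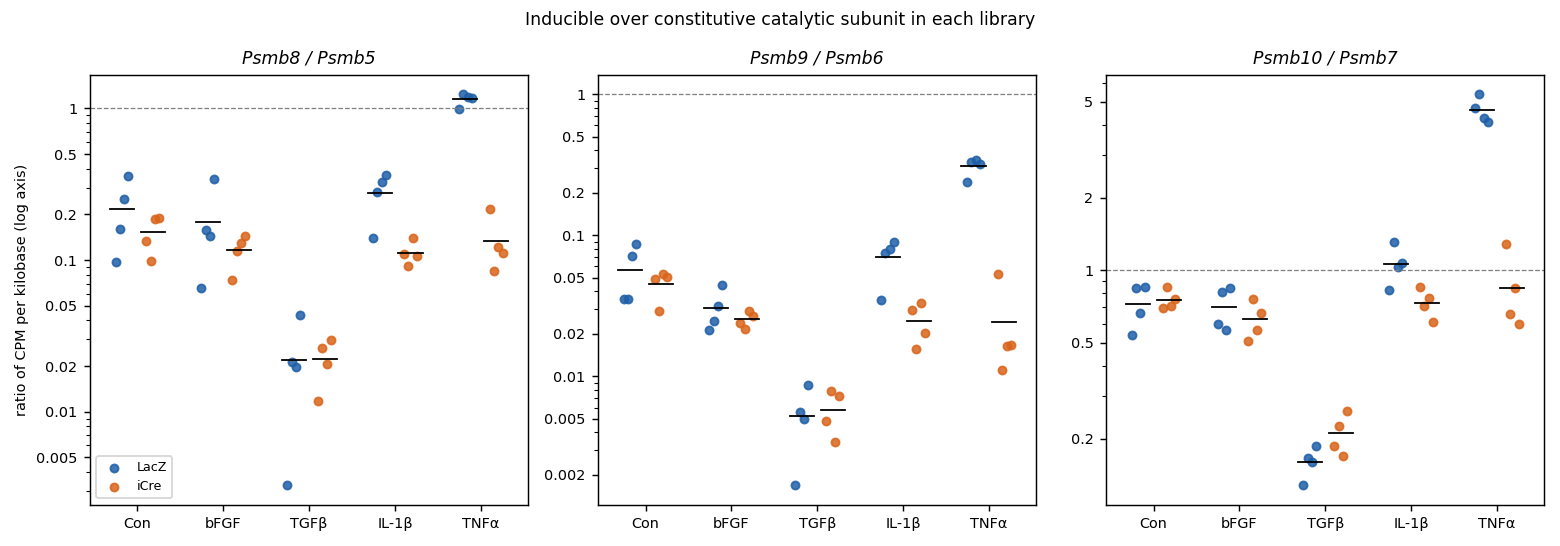
Ratio of each inducible catalytic subunit to the constitutive subunit it replaces, in CPM per kilobase, in each library (log axes), LacZ in blue, iCre in orange and the group mean as a black line. The dashed line marks equal levels per kilobase of all annotated exons, which Psmb10 exceeded in all 4 LacZ libraries with TNFα and Psmb9 in none. Its place depends on these exon lengths.

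The constitutive subunits themselves moved the other way with TGFβ, and in iCre cells they rose with TNFα, IL-1β and TGFβ. In LacZ cells all 3 rose with TGFβ, where 17.5% of all genes rose: Psmb5 by 0.97 ± 0.08 (edgeR adjusted p = 9.3e-06), Psmb7 by 0.66 ± 0.10 (adjusted p = 0.00058) and Psmb6 by 0.50 ± 0.07 (adjusted p = 0.00041). Psmb5 read 29.0, 32.2, 30.7 and 30.8 CPM in LacZ Con and 62.6, 56.6, 59.9 and 57.7 CPM with TGFβ. With TNFα 2 of the 3 rose in LacZ cells, where 10.9% of all genes rose, Psmb5 by 0.36 and Psmb7 by 0.23, while Psmb6 had 0.17 (edgeR adjusted p = 0.091). In iCre cells all 3 rose with IL-1β, by 0.44 to 0.71, where 9.38% of all genes rose, and their log2 fold changes with TGFβ were 0.87 to 1.26. With TNFα all 3 rose in iCre cells by 0.85 to 1.01, where 14.7% of all genes rose. All 3 were higher than in LacZ cells with TNFα, where 14.8% of all genes were higher, by 0.65 ± 0.11 for Psmb5 (edgeR adjusted p = 0.0024), 0.61 ± 0.12 for Psmb6 (adjusted p = 0.0041) and 0.38 ± 0.09 for Psmb7 (adjusted p = 0.014). The interaction of TNFα with iCre was positive for all 3, at 0.61 to 0.80, where 8.38% of all genes had a positive interaction.

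Other proteasome genes were read in the same comparisons, against the 17.5% of all genes that rose with TGFβ and the 10.9% that rose with TNFα in LacZ cells. Of 11 other core 20S subunits, 10 rose with TGFβ and 10 with TNFα in LacZ cells, with median log2 fold changes of 0.61 and 0.39. Psma6, an alpha-ring subunit, rose with TNFα by 0.75 and Psmb3, a beta-ring subunit, by 0.53. Of 18 genes of the 19S regulatory particle, which recognises and unfolds tagged proteins, 18 rose with TGFβ (median 0.94) and 16 with TNFα (median 0.46) in LacZ cells. In iCre against LacZ cells with TNFα 12 of the 18 were higher, where 14.8% of all genes were, among them Psmd11 by 0.69 ± 0.16 (edgeR adjusted p = 0.0088), and 4 of the 11 core subunits were, among them Psmb3 by 0.54 ± 0.13 (adjusted p = 0.014). Of 8 other activators, inhibitors and assembly factors, 5 rose with TGFβ and 4 with TNFα in LacZ cells, and in iCre against LacZ cells with TNFα 3 were higher and 1 lower, where 14.8% of all genes were higher and 12.6% lower. The lower gene was Psme4, named after its values were seen, which differed by -0.35 ± 0.07 (edgeR adjusted p = 0.0045). Psme3, whose product forms the nuclear PA28 cap, rose with TGFβ by 1.05 ± 0.08 (edgeR adjusted p = 6.9e-06) and with TNFα by 0.47 ± 0.08 (adjusted p = 0.0023), unlike Psme1 and Psme2 with TGFβ.

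**Figure D5:**
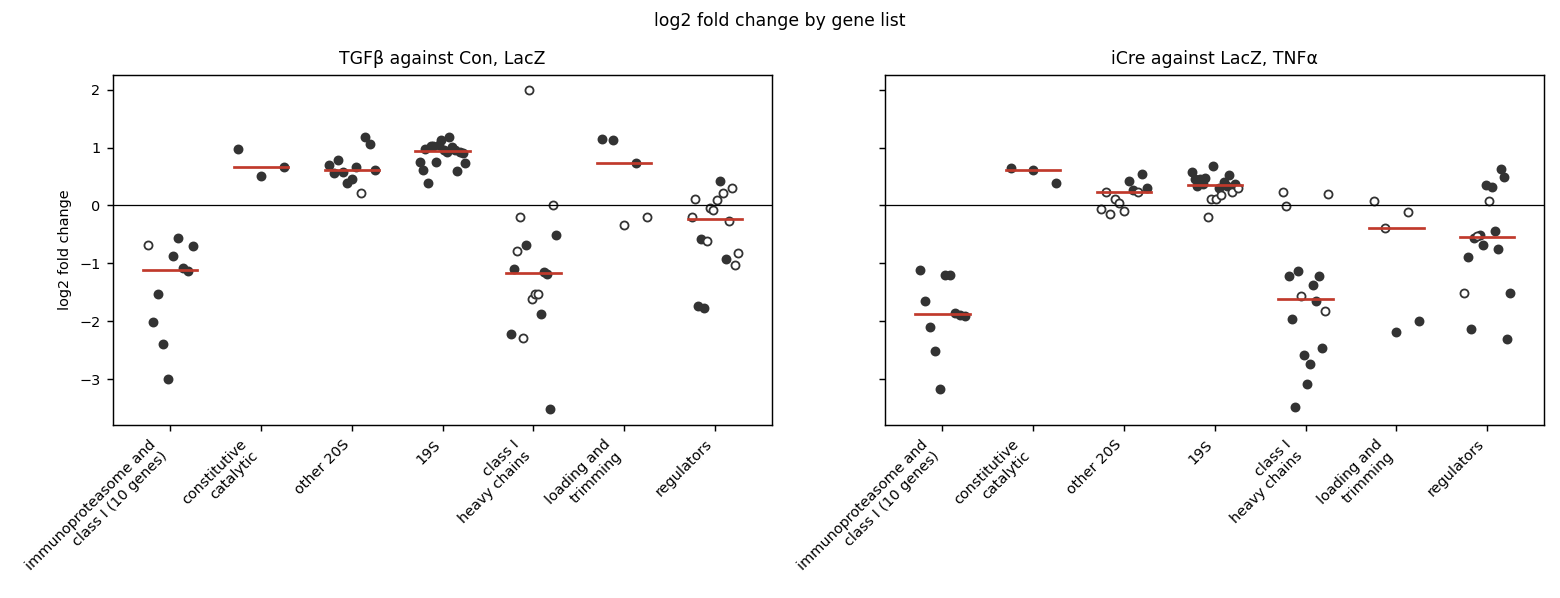
log2 fold change of each tested gene by list, for TGFβ against Con in LacZ cells (left) and for iCre against LacZ cells with TNFα (right). Filled points passed, open points did not, and the red line is the list's median, which is -1.11 and -1.87 for the 10 genes and 0.94 and 0.36 for the 19S genes.

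The class I heavy chains, which B2m pairs with, resembled the 10 genes in part. Of 16 tested, 10 rose and 3 fell with TNFα in LacZ cells, where 10.9% of all genes rose and 10.4% fell. With TGFβ 8 fell, where 19.3% of all genes fell, and with TNFα 11 were lower in iCre than in LacZ cells, where 12.6% of all genes were lower. H2-K1, a classical heavy chain, read 123, 179, 308 and 373 CPM in LacZ Con and 1615, 1572, 1960 and 1963 CPM with TNFα, a log2 fold change of 2.85 ± 0.32 (edgeR adjusted p = 0.00027). With TGFβ it read 123, 203, 215 and 314 CPM, largely within the Con range, with a log2 fold change of -0.20 ± 0.35 (edgeR adjusted p = 0.7). H2-D1 rose with TNFα by 1.62 ± 0.25 (edgeR adjusted p = 0.0016) and had -0.79 ± 0.35 with TGFβ (adjusted p = 0.1). In iCre against LacZ cells with TNFα, H2-K1 differed by -1.95 ± 0.26 (edgeR adjusted p = 0.00066) and H2-D1 by -1.21 ± 0.23 (adjusted p = 0.0039). H2-Q6 and H2-Q7, nonclassical chains, rose with TNFα by 5.41 ± 0.75 (edgeR adjusted p = 0.00086) and 4.35 ± 0.65 (adjusted p = 0.0014), from 0.0223 to 1.39 CPM and 0.0893 to 1.72 CPM in Con. Heavy chain genes are near copies of each other, so how their reads were divided is uncertain. With IL-1β 4 of the 16 rose in LacZ cells, where 11.1% of all genes rose, and 10 with the block, where 15.8% did.

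Of 5 genes of peptide loading and trimming, 3 rose with TNFα in LacZ cells, where 10.9% of all genes rose. Tapbpl, a tapasin homologue that edits peptides, read 13.2, 12.96, 12.7 and 15.0 CPM in Con and 77.7, 92.4, 79.6 and 75.2 CPM with TNFα, a log2 fold change of 2.595 ± 0.09 (edgeR adjusted p = 4e-07). Erap1, an aminopeptidase that trims peptides, rose by 2.28 ± 0.12 (edgeR adjusted p = 3e-06), and the chaperone Canx by 0.63 ± 0.13 (adjusted p = 0.0062). With TGFβ 3 of the 5 rose, where 17.5% of all genes rose, among them Canx by 1.12 ± 0.11 (edgeR adjusted p = 2.7e-05), while Tapbpl had -0.19 (adjusted p = 0.26) and Erap1 -0.33 (adjusted p = 0.16). Both Tapbpl and Erap1 were lower in iCre than in LacZ cells with TNFα, by log2 differences of -1.998 ± 0.19 (edgeR adjusted p = 0.00017) and -2.18 ± 0.18 (adjusted p = 6.9e-05).

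Transcription factors known to act on these genes were measured in the same libraries. Of 16 regulators, 8 rose and 3 fell with TNFα in LacZ cells, where 10.9% of all genes rose and 10.4% fell. In iCre against LacZ cells with TNFα 9 were lower and 4 higher, where 12.6% of all genes were lower and 14.8% higher. Irf1, an interferon regulatory factor, read 42.9, 47.3, 49.8 and 51.0 CPM in LacZ Con, 288, 407, 244 and 208 CPM with TNFα and 12.4, 15.7, 15.0 and 13.6 CPM with TGFβ. It rose by 2.59 ± 0.19 with TNFα (edgeR adjusted p = 2.7e-05) and fell by 1.74 ± 0.10 with TGFβ (adjusted p = 1.9e-06). In iCre cells with TNFα it read 81.7, 60.3, 62.8 and 53.7 CPM, a log2 difference from LacZ of -2.13 ± 0.22 (edgeR adjusted p = 0.0002). Rfx5, a subunit of the complex that binds class I and class II promoters, rose by 1.05 ± 0.11 (edgeR adjusted p = 0.00018), fell with TGFβ by 0.93 ± 0.12 (adjusted p = 0.00022) and differed by -0.74 ± 0.10 (adjusted p = 0.00058). The NF-κB subunits Rela and Nfkb1 rose with TNFα by 1.25 ± 0.08 (edgeR adjusted p = 1.4e-05) and 1.18 ± 0.09 (adjusted p = 2.9e-05). With TGFβ 4 of the regulators fell and 1 rose, where 19.3% of all genes fell and 17.5% rose, and 8 fell with the replicate block, where 23.4% of all genes fell.

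Of 9 tested genes of interferons and their signaling, 7 rose with TNFα in LacZ cells, where 10.9% of all genes rose, and 6 were lower in iCre than in LacZ cells with TNFα, where 12.6% of all genes were lower. Ifnb1, the only interferon among the 9, had 29 counts over all libraries, with means of 0.041 CPM in LacZ Con and 0.018 CPM in LacZ TNFα. Ifng had 0 counts and was not tested. Jak2, a kinase of the interferon-gamma receptor, read 66.3, 92.3, 69.5 and 73.1 CPM in LacZ Con and 281, 474, 330 and 353 CPM with TNFα, a log2 fold change of 2.26 ± 0.17 (edgeR adjusted p = 2.4e-05). In iCre cells with TNFα it read 74.8, 90.7, 68.3 and 68.8 CPM, near the Con level. The receptor subunit Ifngr2 rose in LacZ cells by 1.54 ± 0.12 (edgeR adjusted p = 3e-05) and Ifnar2 by 1.29 ± 0.09 (adjusted p = 2.4e-05).

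Markers of other cells were read beside these results. The leukocyte and macrophage sum was 57.4 to 173 CPM in LacZ Con, 45.5 to 178 CPM in LacZ TNFα, 26.9 to 104 CPM in LacZ TGFβ and 36.7 to 129 CPM in iCre TNFα. With TGFβ the sum was lower than in Con of the same replicate number in 4 of 4 LacZ libraries. Lyz2 made up most of the sum, with a mean of 76.4 CPM against 107 CPM for the whole sum in LacZ Con. Csf1r, another marker of the list, had a higher mean with TGFβ, 7.37 CPM against 6.18 CPM in LacZ Con. Of the 10 tested markers of the list 1 fell with TGFβ in LacZ cells, the macrophage marker Cd68 by 0.90 ± 0.28 (edgeR adjusted p = 0.027), where 19.3% of all genes fell, and 5 fell with the replicate block, where 23.4% did. Lyz2, a myeloid lysozyme, had a log2 fold change of -1.09 ± 0.44 with TGFβ and did not pass (edgeR adjusted p = 0.083). Of the same 10 markers 0 changed with TNFα in LacZ cells by edgeR, with 0 at an unadjusted p under 0.05 and 0 by DESeq2, and with the replicate block 2 rose and 2 fell, where 16.9% of all genes rose and 18.3% fell. Lyz2 read 8.73 to 130 CPM over all libraries, and Ptprc and Cd79a reached at most 2.08 and 0.175 CPM in any library. Others of the list reached more, with at most 15.4 CPM for C1qb, 13.9 CPM for Csf1r and 12.8 CPM for C1qa. Of 4 class II genes, 2 rose with TNFα in LacZ cells, where 10.9% of all genes rose, Cd74 by 3.76 ± 0.55 (edgeR adjusted p = 0.0012) and H2-Aa from at most 0.0177 CPM in Con to 0.0379 to 0.304 CPM (edgeR adjusted p = 0.012). The class II sum was 0.692 to 3.05 CPM in LacZ Con, 3.48 to 6.64 CPM in LacZ TNFα, 0.447 to 1.33 CPM in LacZ TGFβ and 1.19 to 2.0 CPM in iCre TNFα. The fibroblast marker sum was 25795 to 34599 CPM in LacZ TNFα and 15351 to 23387 CPM in iCre TNFα, with 5 of 10 markers lower and 2 higher in iCre cells, where 12.6% of all genes were lower and 14.8% higher. The pericyte and smooth muscle sum was 93.1 to 544 CPM in LacZ Con, 62.0 to 356 CPM in LacZ TNFα, 405 to 940 CPM in LacZ TGFβ and 273 to 1075 CPM in iCre TNFα. Rgs5 made up nearly all of that sum, with means of 327 CPM in LacZ Con and 670 CPM in LacZ TGFβ. In the same order the means were 4.11 and 0.994 CPM for Kcnj8, 4.99 and 1.31 CPM for Abcc9 and 2.23 and 5.04 CPM for Myh11. The higher Myh11 mean rests on replicate 2, at 16.1 CPM. Of the 4 tested markers of this list 3 fell with TNFα and 2 with TGFβ in LacZ cells, where 10.4% and 19.3% of all genes fell, and 2 were higher in iCre than in LacZ cells with TNFα, where 14.8% of all genes were higher. The endothelial sum was 24.9 to 26.1 CPM in LacZ Con, 7.96 to 15.8 CPM in LacZ TNFα, 6.65 to 8.52 CPM in LacZ TGFβ and 9.62 to 16.8 CPM in iCre TNFα. In LacZ cells 1 of its 5 markers, Tek, fell with TNFα and with TGFβ, where 10.4% and 19.3% of all genes fell. The cardiomyocyte sum was 17.5 to 112 CPM in LacZ Con, 2.69 to 7.70 CPM in LacZ TNFα, 3.46 to 14.9 CPM in LacZ TGFβ and 1.36 to 20.4 CPM in iCre TNFα. Tnnt2 made up most of that sum, with a mean of 49.1 CPM against 51.0 CPM for the whole sum in LacZ Con. Of the 4 tested cardiomyocyte markers 1 fell with TNFα and 2 with TGFβ in LacZ cells, where 10.4% and 19.3% of all genes fell. The part of these shifts in the results above was not tested.

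The genes whose log2 CPM over all 40 libraries was most like the mean of the 10 genes were Parp14, H2-Q4, H2-M3, H2-T22 and Gbp2, with Pearson r from 0.958 to 0.970. Gbp2, an interferon-inducible GTPase, had means of 1594 CPM with TNFα, 447 CPM with IL-1β, 120.2 CPM without ligand and 23.6 CPM with TGFβ in LacZ cells, and of 81.2 CPM in iCre cells with TNFα. Parp14 had means of 502, 139, 83.7 and 27.7 CPM in the same LacZ order, and of 84.5 CPM in iCre cells with TNFα. Among the 45 pairs of the 10 genes r ran from 0.73 for Psme1 with B2m to 0.97 for Psmb9 with Tap2, with a median of 0.90. The libraries share groups and replicate numbers, so these correlations are descriptions.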

How the data were processed

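PolyA RNA of 40 libraries was sequenced. The authors deposited raw counts per Ensembl gene, made per the labels and methods with FastQC, STAR, mm10 and HTSeq 0.10.0. The submitters' processing notes give FastQC 0.10.1 and the methods another version. Neither the annotation release nor the strandedness used for counting is given in the sources used here, and the library kit differs between the labels and the methods. Of the 55414 identifiers, 52133 (99.6% of the counts) took a symbol from GENCODE M21.

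Genes with at least 10 counts over all libraries (25210) were tested with edgeR 4.0.16 (glmQLFit and glmQLFTest, TMM; R 4.3.3), 4 libraries against 4 in 14 comparisons, and over 16 libraries in 4 interactions. p-values were Benjamini-Hochberg adjusted over all genes tested, with a threshold of 0.05. The study describes its 4 replicates per group as biological, but the labels do not say whether they came from separate cultures or animals, so p-values measure the spread between these samples. At a median of 36183962 counts, 1 CPM is about 36 reads, and intervals cover this spread and not the counting alone.

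The 10 members and all lists were chosen with earlier results of these data known. Named were the members, fixed pathway genes (Psmb5, Psmb6, Psmb7, Psme3, H2-K1, H2-D1, Irf1 and Rfx5, and 1 more that is not reported here), of each list at most 3 others with the largest change called for TNFα against Con in LacZ cells or iCre against LacZ with TNFα, Map3k7, and the 5 genes most alike. Ptprc, Cd79a, Cd68, Lyz2, Csf1r, C1qa, C1qb, Rgs5, Kcnj8, Abcc9, Myh11, Tnnt2, Ifnb1, Ifng and Psme4 were named after their values were seen.

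Same-numbered libraries deviated together (r over 0.1 in 56 of 56 pairs of libraries within the comparisons tested, lowest 0.28, 13090 genes; the lowest over all same-numbered pairs was 0.071), so the numbers were taken as pairing the samples. Alternatives were DESeq2 1.42.0, RLE scaling, no count filter, the replicate block with and without a GC correction, 1 fit over all 40 libraries, and leaving out each replicate. The block fits used bias-adjusted dispersions (legacy = FALSE), also tried without the block, chosen on simulated data after the files were seen because the default made too many false calls there. The fits were tested on simulated data. No 2 libraries of a group were alike within sampling noise.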

Additional observations from a re-analysis of the deposited data

Results flagged for a closer look

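The response to TNFα differed between iCre and LacZ fibroblasts in 9 of the 10 genes by the interaction test (edgeR, adjusted over all genes tested), where 7.7% of all genes had a negative interaction. Without the replicate 3 libraries 6 passed, not Psmb8, Tap1 and Nlrc5, and without replicate 2 there were 8, not Nlrc5. The interaction terms on the log2 scale were -2.64 for Psmb9, -2.003 for Psmb8 and -1.92 for Psmb10 (adjusted p = 0.0023, 0.0073 and 0.00015), the inducible catalytic subunits. They were -1.79 for Tap2, -1.79 for Tapbp and -1.57 for Tap1 (adjusted p = 0.00024, 0.00022 and 0.0061), the transport and loading genes. They were -1.65 for Nlrc5, -1.24 for Psme1 and -1.09 for Psme2 (adjusted p = 0.03, 4.4e-05 and 0.00027). For IL-1β the response differed for Tapbp, with a term of -1.06 (adjusted p = 0.0017), where 4.95% of all genes had a negative interaction.

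One library lay far from the others of its group. Psmb9 in LacZ cells with TNFα read 43.2 CPM in replicate 1, and its gap to the nearest of the other 3 was 0.882 of the group's whole range, above Dixon's critical value for 4 samples. This was 1 of 100 groups examined, and chance gives about 1 in 20.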

How the results depend on the processing

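Of the 180 log2 differences (10 genes in 18 comparisons), 73 were called and 47 of these kept their call and direction under all 11 alternatives. The counts for TNFα against Con in LacZ cells and for iCre against LacZ cells with TNFα stayed at 10 throughout. With the replicate block, 2 genes fell with bFGF in LacZ cells and 2 in iCre cells (0 in each without), 9 rose with IL-1β in LacZ cells (4 without) and 5 in iCre cells (1 without), 7 rose with TNFα in iCre cells (4 without), 1 was lower in iCre cells with bFGF, 3 were higher with TGFβ and 1 had a positive TGFβ interaction (0 without). The block cost no call, and the block with a GC correction cost 3. With the block and a GC correction the counts were 2, 2 and 9 for the first 3 of these, 2 were lower in iCre cells with bFGF, 5 had a negative IL-1β interaction (1 without), 4 fell with IL-1β in iCre cells (0 without), and B2m reversed there to 0.20 (from -0.15). DESeq2 called 1 gene lower with bFGF in iCre cells. RLE scaling and the fit over all 40 libraries gave 0 genes higher with IL-1β in iCre cells, and that fit gave 2 higher with TNFα in iCre cells and 1 higher in iCre cells with TGFβ. Leaving out 1 replicate number gave 0 to 1 for bFGF, 4 to 9 for TGFβ and 2 to 5 for IL-1β in LacZ cells, 0 to 3, 5 to 9 and 0 to 1 in iCre cells, 3 to 5 for TNFα in iCre cells, 1 to 9 for iCre against LacZ with IL-1β, 7 to 10 for TNFα against IL-1β and 6 to 9 for the TNFα interaction. Leaving out replicate 3 lost 24 calls and replicate 4 lost 14, with 3 libraries a group, and each of replicates 1 and 2 lost 3. These fits were run without the block and so did not use the pairing. Why the other counts moved was not tested. Levels under 1 CPM, as for Psmb9 and Nlrc5 with TGFβ in replicate 1, rest on few reads.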
